A study of Mus musculus with 8 samples.

Results

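The 35 genes described here code for enzymes of cholesterol, fatty acid and phosphatidylcholine synthesis and for 4 regulators of the pathways. They were chosen by symbol as the genes that supply lipid for surfactant. All 35 symbols were found among the 55385 genes of the count files, and all 35 passed the filter on low counts. They fall into 5 roles: 4 regulators, 6 enzymes of the mevalonate pathway, 10 enzymes from squalene to cholesterol, 8 enzymes of fatty acid synthesis, elongation and desaturation, and 7 enzymes of glycerolipid and phosphatidylcholine synthesis. The regulators are Srebf1 and Srebf2, which code for sterol regulatory element binding proteins (SREBPs), and Insig1 and Insig2, whose products hold SREBPs back.

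The data are mRNA-seq of whole lungs from C57BL/6 mouse fetuses at E18.5, 4 control and 4 with tracheal occlusion (TO). In TO fetuses the trachea had been tied at E16.5 through the uterine wall, in a ligature that also took in a carotid artery and a jugular vein, so effects of the vessels and of the trachea cannot be told apart. Dams of the model received progesterone. The specimen names in the study's figure of these data are those of control 1, 2 and 4 and TO 2, 3 and 4, which are given first here as the 6 libraries, and control 3 and TO 1 were added to make 8. A number in the specimen names is shared by control 2 and TO 2, by control 3 and TO 3, and by control 1, control 4, TO 1 and TO 4, and what it stands for is not given in the sources used here. In these sources, nothing says whether the lungs came from separate litters or whether controls were operated on, and p-values measure the spread between these lungs alone.

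Pulmonary surfactant is a film of lipid and protein that type 2 alveolar (AT2) cells secrete. Most of its lipid is phosphatidylcholine with saturated fatty acid chains, and the rest includes cholesterol. AT2 cells make fatty acids from citrate and glucose, join them to glycerol, and add choline through the CDP-choline pathway, and near birth this output grows. SREBP-1, the product of Srebf1, mainly drives fatty acid genes, and SREBP-2, the product of Srebf2, mainly drives cholesterol genes. INSIG proteins hold both precursors in the endoplasmic reticulum while sterol is plentiful.

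SREBPs bind sterol regulatory elements and act with NF-Y, which binds the CCAAT box, and with Sp1, which binds GC boxes. RefSeq promoter windows (GRCm38.p6) were found for 30 of the 35 genes, and the 250 bases before each start were searched on both strands. The motifs were TCACNCCAC, a sterol regulatory element core, CCAAT and GGGCGG, and a gene was counted when any of its windows held a match. A sterol regulatory element core was found in 2 of the 30 genes (6.67%), Hmgcs1 and Pcyt1a, against 1.2% of 8532 genes at a mean of 10 CPM (counts scaled to a common library size) or more in these lungs. CCAAT was found in 24 of 30 (80%) against 40.2%, and in each of the 13 cholesterol enzymes and 4 regulators with a window. It was found in 3 of 6 fatty acid enzymes and 4 of 7 glycerolipid enzymes. GGGCGG was found in 25 of 30 (83.3%) against 66.6%. The members had 1.5 windows per gene and the genes of the whole table had 1.22, and a match describes letters, not a bound site. The windows of 4 genes are printed because they carry the sterol element core or several CCAAT boxes. Capitals mark TCACNCCAC and CCAAT, the latter reading ATTGG where it lies on the other strand, and GC boxes are not marked. The 250 bases are chr13:119690101-119690350 (+ strand) for Hmgcs1, chr16:32430671-32430920 (+ strand) for Pcyt1a, chr5:114444019-114444268 (+ strand) for Mvk and chr11:120824548-120824797 (- strand) for Fasn, each written 5′ to 3′ toward the start.
Hmgcs1: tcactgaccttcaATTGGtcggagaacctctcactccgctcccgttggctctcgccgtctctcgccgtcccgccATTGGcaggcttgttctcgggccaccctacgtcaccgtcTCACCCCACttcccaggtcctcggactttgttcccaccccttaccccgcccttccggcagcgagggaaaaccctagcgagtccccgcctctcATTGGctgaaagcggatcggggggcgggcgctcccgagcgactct
Pcyt1a: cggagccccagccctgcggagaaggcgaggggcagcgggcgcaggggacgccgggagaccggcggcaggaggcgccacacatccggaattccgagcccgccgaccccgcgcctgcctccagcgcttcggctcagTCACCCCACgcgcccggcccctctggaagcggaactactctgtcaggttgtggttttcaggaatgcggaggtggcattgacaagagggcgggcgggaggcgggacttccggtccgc
Mvk: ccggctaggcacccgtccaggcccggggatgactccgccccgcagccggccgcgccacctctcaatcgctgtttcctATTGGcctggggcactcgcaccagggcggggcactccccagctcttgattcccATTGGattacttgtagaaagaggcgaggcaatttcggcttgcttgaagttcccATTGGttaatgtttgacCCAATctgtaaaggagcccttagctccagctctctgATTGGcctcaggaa
Fasn: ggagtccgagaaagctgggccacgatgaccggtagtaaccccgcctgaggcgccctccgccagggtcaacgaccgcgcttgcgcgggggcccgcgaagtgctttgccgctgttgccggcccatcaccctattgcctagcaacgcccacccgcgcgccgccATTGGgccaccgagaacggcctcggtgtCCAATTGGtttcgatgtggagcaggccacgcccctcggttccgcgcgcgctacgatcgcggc
The core lay 137 bases before the start in Hmgcs1. In Pcyt1a it lay 116 bases before the start of the printed window and 215 bases before another start. The window of a further Pcyt1a start held no core. Mvk held 5 CCAAT boxes and Fasn 3, of which 2 overlap. Sequence windows for Fdft1, Fdps, Scd1, Scd2 and Sqle were not used here.

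Read pairs counted on genes numbered 22822261 to 35002061 in 7 libraries and 270078 in TO 1, so values of TO 1 rest on few reads and are given with that in mind. The markers of AT2 cells were present in every library, with a summed level of 7059 CPM in TO 1, 9563 in TO 4, 10500 to 17000 in the controls, 17000 in TO 3 and 21050 in TO 2. CPM was computed after TMM scaling. In bulk lung, fewer cells of a type and less RNA per cell cannot be told apart.

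Per kilobase of exon, the scale on which genes can be compared, the most abundant member was Scd2, a stearoyl-CoA desaturase, at 259 CPM per kb (mean of the 6 libraries). Fasn, which builds palmitate, followed at 64.5, Acly, which makes cytosolic acetyl-CoA, at 52.7, Elovl5, an elongase of polyunsaturated chains, at 46.5, Scd1 at 44.2 and Gpam, which starts glycerolipid synthesis, at 42.3 CPM per kb. The ranges of these last 5 genes over the 6 libraries overlapped, and that of Scd2 lay above them all. The mean of Scd1 was raised by TO 2, at 147 CPM per kb, where its lowest library was at 18.4. By their means the cholesterol enzymes were lower, from 0.43 CPM per kb for Fdps to 25.0 for Hmgcs1, the cytosolic HMG-CoA synthase. The range of Scd1 overlapped that of Hmgcs1 (19.3 to 32.2 CPM per kb). The level of Fdps, farnesyl diphosphate synthase, is uncertain, since 26.7% of its exon bases lie in another gene annotated on the same strand and 39.5% of the 75-base stretches of its transcripts also occur in other genes. Such shared stretches made up 35.1% in Idi1 and 33.6% in Acaca, 5.36% in Scd1 and 2.14% in Scd2.

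**Figure D1:**
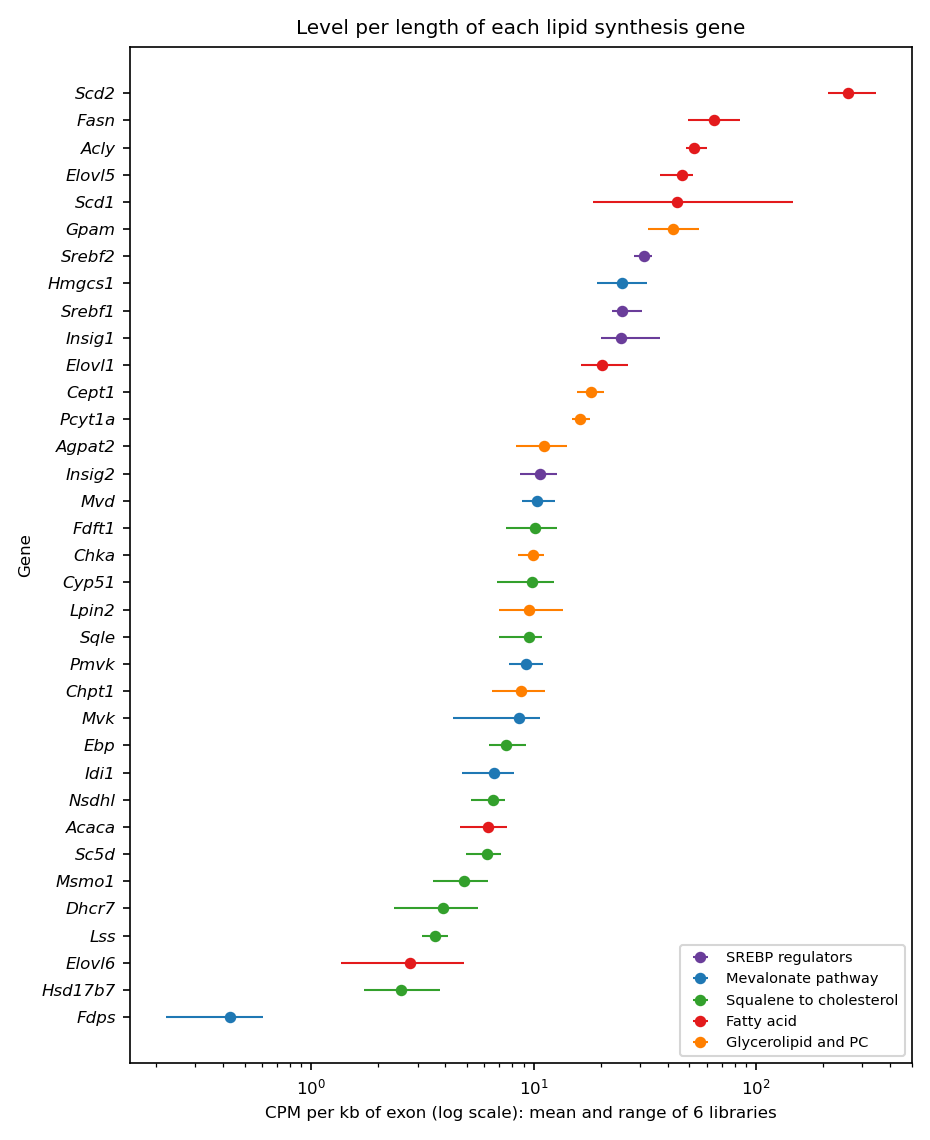
CPM per kb of exon (x axis, log scale) for each of the 35 genes (y axis), with the mean as a point and the range of the 6 libraries as a line, coloured by role. Scd2 stands at the top at 259 CPM per kb and Fdps at the bottom at 0.43, and Scd1 has the widest range among the abundant genes.

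In the 6 libraries edgeR was used to set TO against control. Of the 35 genes, 23 were higher in TO and 12 lower (49.3% of all genes were higher), and the median log2 fold change was 0.04, against 0.00 for all 21859 genes tested. No member passed the threshold of an adjusted p under 0.1 (edgeR, lowest adjusted p = 0.907), and of all genes tested 0% passed it. DESeq2 called 0 members too, where it called 0.201% of all genes, and limma-voom called 0. At an unadjusted p under 0.05 edgeR found 3 members (8.57%), all higher in TO, beside 5.14% of all genes and 3.07% of all genes that were higher. DESeq2 found 2 members at that mark (6.11% of all genes) and limma-voom 1 (6.23%). The fold change was smaller than its standard error for 22 of the 35. For 33 members the 95% interval of the fold change stayed within 1 of 0 on the log2 scale, as it did for 92.7% of all genes at 10 CPM or more, and the exceptions were Scd1 and Fdps. For 4 members (11.4%), Acaca, Scd1, Pcyt1a and Chka, the levels of the groups stood apart without overlap, beside 10.9% of all genes. The share of members past either mark was near that of all genes.

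**Figure D2:**
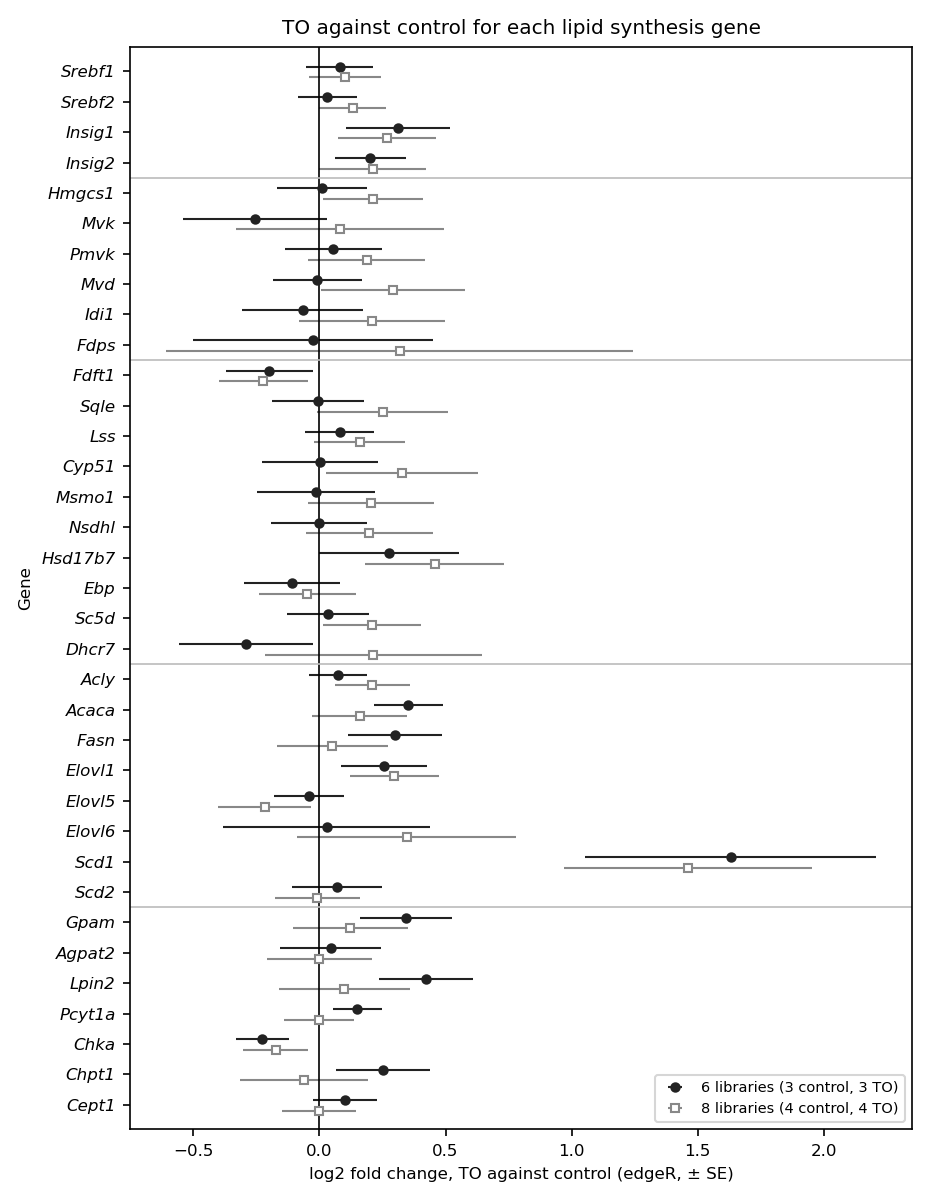
Log2 fold change of TO against control for each gene (y axis, in the order of the roles), from edgeR, with lines of 1 standard error. Filled circles are the fit to 6 libraries and open squares the fit to 8. Most points lie within 0.5 of 0, and Scd1 stands apart at 1.63 and 1.46.

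All 4 regulators were higher in TO in the 6 libraries, and none passed the test. Srebf1 was at 137, 145 and 128 CPM in control 1, 2 and 4, and at 173, 126 and 135 CPM in TO 2, 3 and 4. The groups overlapped, and only TO 2 was above every control. The log2 fold change was 0.08 ± 0.13 (SE) and turned to -0.06 without TO 2. Srebf2 was at 244, 208 and 212 CPM in these controls and 242, 203 and 234 in these TO lungs, a log2 fold change of 0.03 ± 0.12. Insig1, whose product holds back SREBP processing and whose gene SREBPs also drive, was at 77.0, 61.9 and 66.4 CPM in the controls and 115, 63.8 and 76.4 in the TO lungs. Here too TO 2 was the high library, and the log2 fold change of 0.31 ± 0.20 went to 0.04 without it. Insig2, the related anchor, was at 30.2, 37.4 and 35.7 CPM in the controls and 44.3, 38.9 and 35.8 in the TO lungs, a log2 fold change of 0.20 ± 0.14. Control 3 and TO 1 were at 115 and 124 CPM for Srebf1, 183 and 254 for Srebf2, 63.8 and 58.4 for Insig1, and 47.7 and 72.1 for Insig2. None of the 4 had an unadjusted p under 0.05 in the edgeR fit without a block, and Insig1 had one of 0.029, at a log2 fold change of 0.45, with the shared specimen number as a block.

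In the 6 libraries the direction of the 16 cholesterol enzymes turned with the design. In the fit without a block, 6 were higher and 10 lower in TO, with log2 fold changes from -0.29 to 0.28 and a median of -0.01. For 14 of the 16 the fold change was smaller than its standard error, and none had an unadjusted p under 0.05 in edgeR or DESeq2. With the number that specimen names share as a block, 13 of the 16 were higher, all but Fdft1, Ebp and Dhcr7, at a median log2 fold change of 0.14, where 48.2% of all genes were higher. TO 3 has no control of its number among the 6 libraries and adds nothing to that blocked difference. Hsd17b7, a reductase of the later steps, had an unadjusted p of 0.024 in the blocked edgeR fit, and no enzyme was called. Of the mevalonate enzymes, Hmgcs1 was at 126, 113 and 104 CPM in control 1, 2 and 4, and at 148, 88.8 and 109 in TO 2, 3 and 4. The TO lungs spanned the controls on both sides, and the log2 fold change was 0.01 ± 0.18. Idi1, which isomerises the building block of isoprenoids, was at 28.6, 17.3 and 25.5 CPM in the controls and 27.3, 16.7 and 24.1 in the TO lungs. Mvk, mevalonate kinase, was at 28.5, 23.9 and 22.8 CPM in the controls and 24.5, 11.5 and 26.7 in the TO lungs, where TO 3 was low. Fdps stood between 0.93 and 2.54 CPM in these 6 libraries. Of the later enzymes, Sqle, the squalene epoxidase, was at 58.1, 47.5 and 52.7 CPM in the controls and 60.3, 38.5 and 58.8 in the TO lungs. Cyp51, which removes a methyl group from lanosterol, was at 54.4, 35.4 and 40.6 CPM in the controls and 51.7, 30.3 and 48.4 in the TO lungs. Fdft1, which makes squalene, was at 53.5, 43.0 and 41.1 CPM in the controls and 43.5, 31.7 and 44.6 in the TO lungs, and 18.3% of its exon bases overlap a gene on the other strand, whose reads these counts do not separate. TO 3 was the lowest of the 6 libraries for each of Hmgcs1, Idi1, Mvk, Sqle, Cyp51 and Fdft1. TO 1 was at 165 CPM for Hmgcs1, 37.8 for Idi1, 27.5 for Mvk, 65.2 for Sqle, 72.1 for Cyp51 and 27.5 for Fdft1, from 8 to 48 read pairs each. The remaining 9 enzymes had mean levels of 13.0 to 38.9 CPM, with Hsd17b7 the lowest, at 12.0, 8.81 and 14.4 CPM in the controls and 12.5, 10.7 and 19.3 in the TO lungs.

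The cholesterol enzymes varied widely between lungs of 1 group. Control 3 was the lowest of the 7 deep libraries for 14 of the 16 (87.5%, beside 26.7% of all genes at 10 CPM or more), with Fdft1 and Ebp the exceptions. Control 3 and TO 3 were together the 2 lowest for 10 of the 16 (62.5%, beside 19.6%). In control 3 Mvk was at 6.44 CPM, where the other 3 controls were at 22.8 to 28.5. Cyp51 was at 19.97 CPM there, Sqle at 24.2, Idi1 at 12.7, Hmgcs1 at 85.0 and Fdft1 at 42.1, and Fdps was listed at 0. The highest of the 7 libraries was at least 2 times the lowest for 10 of the 16 enzymes, beside 18.1% of all genes at 10 CPM or more. Control 3 and TO 3 share a specimen number. Other lists moved with these 2 libraries: the 8 cell cycle genes summed to 425 CPM in control 3 and 440.5 in TO 3 against 920.5 to 1686 in the other 6, and the 8 interferon-stimulated genes to 221 and 398.8 CPM against 47.2 to 114.3. Their part in the cholesterol levels was not tested. The sum of the AT2 markers was not low there, at 13050 CPM in control 3 and 17000 in TO 3, of which Sftpc gave 7492 and 9671. Of the 10 markers, control 3 and TO 3 were the 2 lowest of the 7 deep libraries for 1, Etv5, at 212.3 and 235.6 CPM.

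Adding control 3 also turned the direction of the cholesterol list in the fit without a block. In the 7 deep libraries 13 of the 16 enzymes were higher in TO (48% of all genes), at a median log2 fold change of 0.16. In all 8 libraries 14 were (46.8% of all genes), at a median of 0.21. Without a block, none had an unadjusted p under 0.05 in edgeR in 7 libraries (2% of all genes) or in 8 (2.35%). Within the lungs that share a specimen number, TO 3 was above control 3 for 14 of the 16 (median difference of log2 CPM 0.55), TO 2 was above control 2 for 13 (median 0.28), and TO 4 was above the mean of control 1 and control 4 for 10 (median 0.05). By Xist (1.88 and 1716 CPM) and the Y-linked Ddx3y (129.8 and 0.08 CPM), control 3 was male and TO 3 female. In that set sex and TO cannot be told apart. 7 of the 16 were higher in TO within all 3 sets, as were 14 of all 35 members (40%), where 12.3% of all genes were. With the shared number as a block, edgeR called none of the 35 in 6, 7 or 8 libraries. In 6 libraries 29 of the 35 were then higher in TO, at a median log2 fold change of 0.14. 14 of the 16 cholesterol enzymes were then higher in TO in 7 libraries (49.5% of all genes) and 14 in 8 (48.1%), at a median log2 fold change of 0.26 and 0.27. At an unadjusted p under 0.05 the blocked edgeR fit found 3 members in 6 libraries (6.29% of all genes), Insig1, Hsd17b7 and Scd1, all higher in TO. In 7 libraries it found 5 (4.37% of all genes), Sqle, Hsd17b7, Elovl6 and Scd1 higher and Elovl5 lower, and in 8 it found 5 (5.11%), Sqle, Cyp51, Hsd17b7, Elovl6 and Scd1, all higher.

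**Figure D3:**
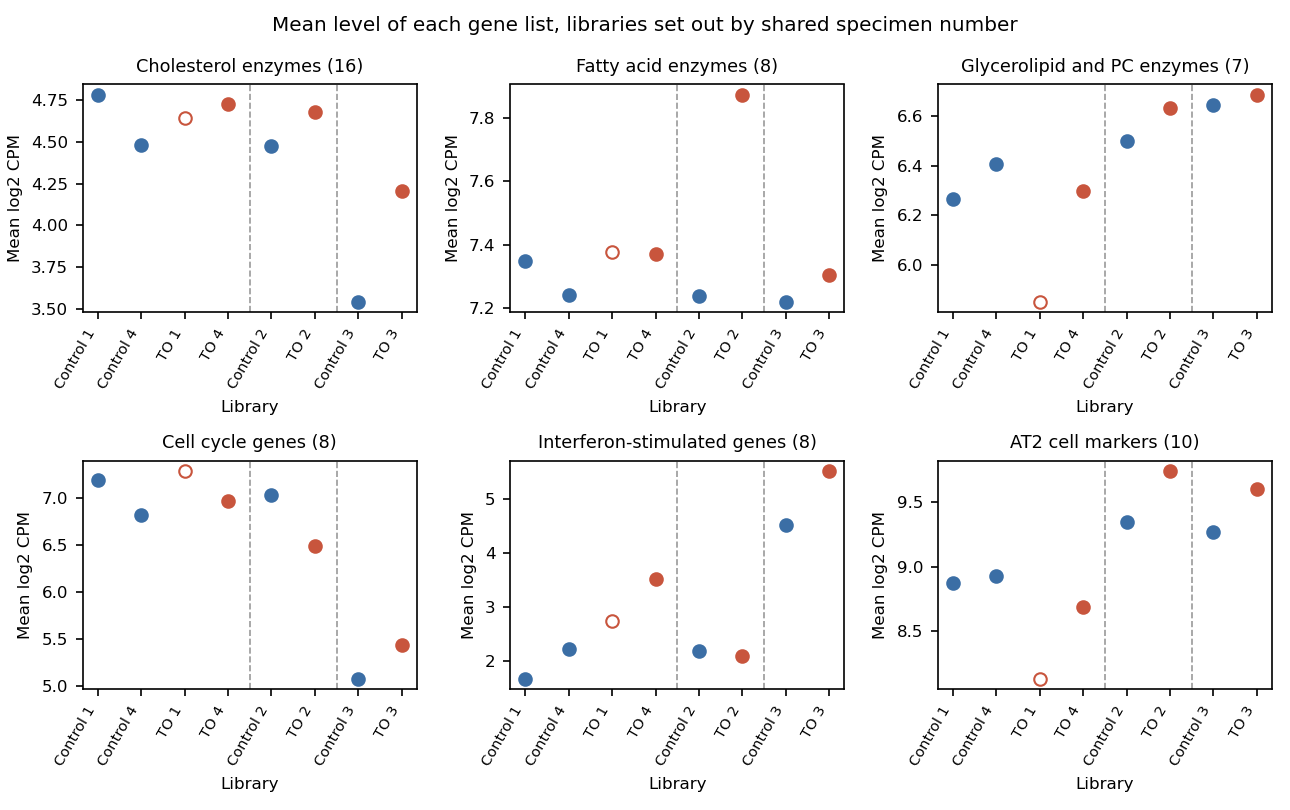
Mean log2 CPM (y axes) of 6 gene lists in each library (x axes), with the number of genes in brackets, controls in blue, TO in red and TO 1 open. Dashed lines separate the sets of lungs that share a specimen number. Cholesterol enzymes and cell cycle genes are lowest in control 3 and TO 3, and the interferon-stimulated genes are highest there, while fatty acid enzymes are highest in TO 2. The cholesterol mean of control 3 includes Fdps, listed at 0.

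The 8 fatty acid genes leaned toward TO in the 6 libraries: 7 were higher, with a median log2 fold change of 0.16, and 2 of them, Acaca and Scd1, had an unadjusted p under 0.05 in edgeR. TO 2 was the highest of the 6 libraries for 5 of the 8 genes, and for 13 of all 35 members (37.1%), where it was the highest for 15.5% of all genes. TO 2 was also the library with the highest AT2 marker sum. Scd2 was at 1457, 1355 and 1336 CPM in control 1, 2 and 4, and at 1899, 1147 and 1311 in TO 2, 3 and 4. TO 2 lay above all controls and the other TO lungs below them, and the log2 fold change was 0.07 ± 0.18. Fasn was at 625, 592 and 680 CPM in the controls and 879, 922 and 540 in the TO lungs. TO 2 and TO 3 were above every control and TO 4 below, a log2 fold change of 0.30 ± 0.19. Acly was at 290, 256 and 267 CPM in the controls and 317, 261 and 278 in the TO lungs, a log2 fold change of 0.07 ± 0.11 that became -0.01 without TO 2. Acaca, the acetyl-CoA carboxylase of the rate-limiting step, was at 99.9, 79.7 and 99.3 CPM in the controls and 130, 125 and 102 in the TO lungs. The 3 TO lungs lay above the 3 controls, by a log2 fold change of 0.35 ± 0.14 (edgeR, unadjusted p = 0.029, adjusted p = 0.907). Control 3, at 115 CPM, and TO 1, at 65.2, made the groups overlap. The log2 fold change was 0.27 in the 7 deep libraries and 0.16 in all 8. In control 3 and TO 1, Scd2 was at 1403 and 1143 CPM, Fasn at 830 and 460, and Acly at 191 and 306. The elongases Elovl1, Elovl5 and Elovl6 had mean levels of 55.1, 163.9 and 17.9 CPM in the 6 libraries, with overlapping groups.

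Scd1, at chr19:44394455-44407879 (GRCm38, - strand), had the largest fold change of the 35 genes. It codes for a desaturase that puts a double bond into stearoyl-CoA and palmitoyl-CoA. It was at 117, 109.5, 103 and 90.1 CPM in control 1 to 4, and at 144, 719, 125 and 137.5 CPM in TO 1 to 4. Each TO lung was above each control, TO 2 far above and the other 3 slightly, though the value of TO 1 rests on 42 read pairs. The same order held for 0.491% of all genes at 10 CPM or more and 0.714% of all genes in 8 libraries, and Scd1 was the only member to show it. The log2 fold change was 1.63 ± 0.58 in the 6 libraries (edgeR, unadjusted p = 0.022, adjusted p = 0.907) and 1.46 ± 0.49 in 8 (edgeR, unadjusted p = 0.013). Without TO 2 it was 0.32 ± 0.15. Its adjusted p over the alternatives to the main fit ran from 0.000387 to 1 (edgeR), where DESeq2 gave none in 7 or 8 libraries. The lowest came from the fit of the 6 libraries with the replicate number as a block. There control 1 and TO 3 have no partner, and only the pairs of number 2 and number 4 inform the difference. TO 2 held 6.15 times the median of the other 5 libraries for Scd1 and 1.42 times for Scd2, the neighbouring gene at chr19:44293674-44306864 (+ strand). Scd3 and Scd4, desaturase genes of the same cluster, were below 5 CPM in every library. The 6 fat markers summed to 4.39 CPM in TO 2, within the 1.56 to 18.53 of the other libraries, and 1 of them, Ucp1, was at 0 in all 8. The 8 hepatocyte markers summed to 32.1 CPM in TO 2, to 881.8 in control 1 and to 376.8 in TO 4, and the 6 skeletal muscle markers to 209.3 CPM in TO 2 and 22.3 to 2740 elsewhere. The part of AT2, fat, liver or muscle RNA in the level of Scd1 was not tested.

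**Figure D4:**
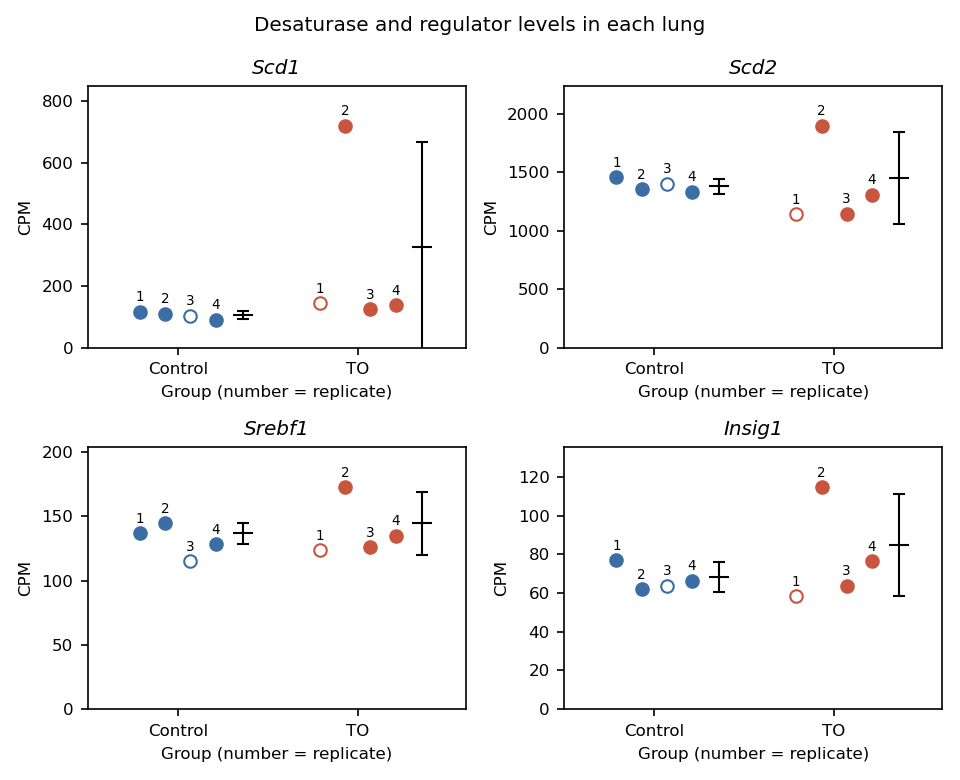
CPM (y axes, from 0) of Scd1, Scd2, Srebf1 and Insig1 in each lung, numbered by replicate, with filled points for the 6 libraries, open points for control 3 and TO 1, and bars for the mean and SD of the 6 (the lower SD bar of Scd1 in TO runs below 0 and is cut). TO 2 is the highest point in all 4 panels, at 719 CPM for Scd1.

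The 7 glycerolipid and phosphatidylcholine genes also leaned toward TO in the 6 libraries, with 6 higher and a median log2 fold change of 0.15. Gpam was at 241, 247 and 256 CPM in control 1, 2 and 4, and at 362, 369 and 217 in TO 2, 3 and 4. TO 2 and TO 3 were well above the narrow range of the controls and TO 4 was below it, a log2 fold change of 0.34 ± 0.18. Without TO 4 it was 0.56, with an adjusted p of 0.0917 in edgeR, a call that rested on leaving that lung out. Lpin2, a phosphatidate phosphatase that makes diacylglycerol, was at 85.2, 112 and 101 CPM in the controls and 137, 166 and 97.4 in the TO lungs. The groups overlapped through TO 4, and the log2 fold change was 0.42 ± 0.19 (edgeR, unadjusted p = 0.049, adjusted p = 0.907). Among the 6 libraries Fasn, Gpam and Lpin2 shared 1 order, with TO 2 and TO 3 above the controls and TO 4 within or below them. Control 3 and TO 1 were at 297 and 161 CPM for Gpam and at 152 and 58.4 for Lpin2. Control 3 lay above TO 2 for Lpin2, and TO 1 lay below every control for all 3 genes. In the 7 deep libraries the log2 fold change was 0.25 for Lpin2, 0.28 for Gpam and 0.20 for Fasn. In 8 libraries, with TO 1 added, it was 0.10 for Lpin2, 0.12 for Gpam and 0.05 for Fasn. The AT2 markers summed to 21050, 17000 and 9563 CPM in TO 2, 3 and 4, and to 12020, 17000 and 10500 in control 1, 2 and 4. In that sum TO 3 was level with control 2. The 5 myeloid markers summed to 367.3, 334.7 and 216.8 CPM in TO 2, 3 and 4, and to 159.7 to 220.7 in these controls. Lyz2 gave 303 CPM of the myeloid sum in TO 2 and 240.5 in TO 3. Ptprc, Csf1r, Cd68 and Itgam were each lower in TO 2 than in TO 4. The part of AT2 or myeloid RNA in the levels of Fasn, Gpam and Lpin2 was not tested.

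The choline branch showed small differences. Pcyt1a, the enzyme that makes CDP-choline and sets the rate of the CDP-choline pathway, was at 115, 110 and 116 CPM in control 1, 2 and 4 and at 127, 132 and 120 in TO 2, 3 and 4. The TO lungs lay just above the controls, by a log2 fold change of 0.15 ± 0.10 with a 95% interval of -0.07 to 0.37. Control 3, at 144 CPM, was above all of them, so the order did not hold in 7 libraries. Chka, choline kinase alpha, was the 1 member with all 3 TO lungs below the controls, at 122, 133 and 131 CPM in the controls and 102, 111 and 116 in the TO lungs. Its log2 fold change was -0.23 ± 0.10, with a 95% interval of -0.46 to 0.01, and control 3, at 103 CPM, again broke the order. TO 1 was at 96.1 CPM for Pcyt1a and 99.6 for Chka. The last step is made by Chpt1 and Cept1, which had mean levels of 72.5 and 56.5 CPM, and Agpat2, which adds the second acyl chain, had 23.7 CPM, all with overlapping groups. In contrast to the cholesterol enzymes, control 3 was the lowest of 7 libraries for none of these 7 genes. Control 3 and TO 3 were together the 2 highest for 3 of them (42.9%, beside 14.7% of all genes at 10 CPM or more), namely Lpin2, Pcyt1a and Chpt1. In the 7 deep libraries 6 of the 7 genes were higher in TO (48% of all genes), at a median log2 fold change of 0.06. In 8 libraries, with TO 1 of few reads added, the median was 0.00, with 2 of the 7 higher in TO (46.8% of all genes).

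**Figure D5:**
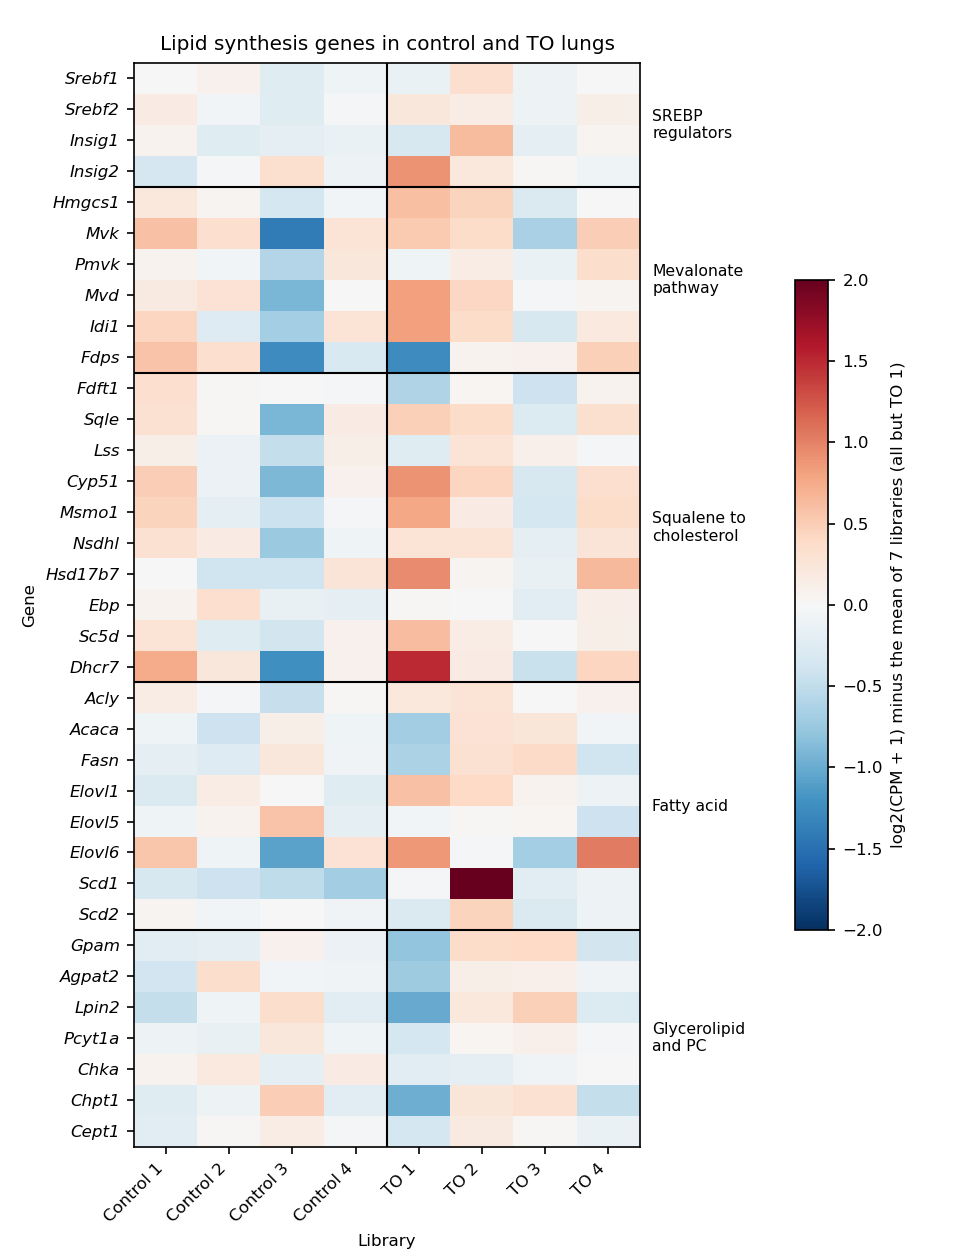
Log2(CPM + 1) of each gene (rows, by role) in each library (columns) minus its mean over the 7 deep libraries, with red above and blue below the mean and the colour scale ending at 2 in both directions. Control 3 is blue across most cholesterol enzymes, TO 2 is red for Scd1 and Insig1, and TO 1, with few reads, differs from gene to gene.

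Of 44 other genes of the same pathways, 43 were tested and edgeR and DESeq2 called 0 in the 6 libraries. 21 were higher in TO (49.3% of all genes were), and the median log2 fold change was -0.01. At an unadjusted p under 0.05 edgeR found 2 (4.65%, beside 5.14% of all genes) and DESeq2 4 (beside 6.11% of all genes). The edgeR share was near that of all genes. The 2 of edgeR were Me1 and Acss2. Me1, malic enzyme, which makes NADPH, was at 57.1, 55.4 and 63.2 CPM in control 1, 2 and 4 and at 89.1, 95.7 and 63.5 in TO 2, 3 and 4, a log2 fold change of 0.49 ± 0.16 (edgeR, unadjusted p = 0.011, adjusted p = 0.907). Acss2, which makes acetyl-CoA from acetate, was at 23.2, 26.7 and 25.9 CPM in the controls and 37.9, 46.6 and 28.1 in the TO lungs, a log2 fold change of 0.57 ± 0.18 (edgeR, unadjusted p = 0.014, adjusted p = 0.907). TO 2 and TO 3 were well above the controls and TO 4 just above them. Control 3, at 82.9 CPM for Me1 and 36.3 for Acss2, made the groups overlap, and TO 1 was at 61.8 and 17.2 CPM. Lpcat1, which remodels phosphatidylcholine toward its saturated surfactant form, was the most abundant of the 44 by CPM, at 643, 689 and 622 CPM in the controls and 898, 659 and 544 in the TO lungs. Mbtps1, a protease that cuts SREBP precursors, was at 300, 271 and 298 CPM in the controls and 300, 271 and 305 in the TO lungs, with nearly the same levels in both groups.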

How the data were processed

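The authors barcoded whole-lung RNA with NexteraXT and sequenced both ends of each fragment. Per the labels and the study's methods, reads were aligned with STAR to GRCm38 (mm10), and the version and annotation are not given in the sources used here. What the authors deposited are gene counts in whole read pairs, not normalized. The column for both strands was used, and rows that name no gene (23.08% to 27.06% of pairs) were left out. Reads carry no molecular identifiers. Of 55385 gene IDs, 54487 equal those of GENCODE M21, which gave symbols and exons.

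Groups come from the sample titles. The test took genes that reached 5 reads in at least 3 libraries and was made with edgeR 4.0.16 (TMM, quasi-likelihood, Benjamini-Hochberg over all genes, threshold 0.1) in R 4.3.3, after a check on simulated data. SE and 95% intervals are those of the fit. Log2 CPM used a prior count of 2. Levels per kb divide CPM by the union of exons. Figures were drawn in Python 3.11.15. DESeq2 1.42.0, limma 3.58.1, other filters and scalings, single strands, 7 and 8 libraries, left-out libraries and blocks were alternatives.

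The members and lists were chosen with earlier results of these data known. Values per library are given for the regulators, the 3 most abundant members of each role, members with an unadjusted p under 0.05 and members whose groups did not overlap. The lists of AT2, fat, hepatocyte, cardiomyocyte, skeletal muscle and myeloid markers, cell cycle genes and interferon-stimulated genes were read as summed CPM. Of the other pathway genes, the 2 most abundant and those with an unadjusted p under 0.05 were named. Scd3 and Scd4 were named after their values were seen.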

Additional observations from a re-analysis of the deposited data

Results flagged for a closer look

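In 5 of 70 groups of 4 lungs, 1 library lay far from the other 3 by Dixon's test, where chance flags about 1 group in 20 (3.5 of 70). Scd1 was at 719 CPM in TO 2, where the other TO lungs were at 125 to 144.2. Mvk was at 6.44 CPM in control 3, where the other controls were at 22.84 to 28.45, and at 11.5 CPM in TO 3, where the other TO lungs were at 24.54 to 27.47. Nsdhl was at 14.9 CPM in TO 3, below the 20.47 to 20.73 of the other TO lungs, a narrow range. Fdps was listed at 0 in TO 1, the library of few reads, where the other TO lungs were at 1.503 to 2.331 CPM.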

How the results depend on the processing

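Over 25 alternatives to the fit of the 6 libraries, the 35 members gave 875 values. Of these, 713 kept the direction and the side of the threshold, 2 were called in the alternative, and 160 had the opposite direction, 127 of them on a cholesterol enzyme and 61 with both log2 fold changes under 0.1. 8 members kept their direction in all 25. The cause of these shifts was not tested. Of all genes tested, edgeR called 40 when every gene with a read was kept, 0 to 144 with a library left out (52 without control 4, 144 without TO 4), and 1 in 7 libraries with the shared specimen number as a block. DESeq2 called 44 in 6 libraries, 7 in 7 and 7 in 8. With a library left out, members called ranged from 0 to 1 (Gpam, without TO 4) and those at an unadjusted p under 0.05 from 0 (without TO 2) to 7 (without TO 4). The latter numbered 1 with limma-voom, 1 in 8 libraries and 1 in 7, 0 with DESeq2 in 7 and 0 in 8, and 5 with the specimen number as a block in 8 and 5 in 7. In the fits with a library left out, the share of all genes at an unadjusted p under 0.05 is not given here. Counts of members and of other pathway genes in those fits are thus not set against it. The median log2 fold change of the members went to 0.203 with DESeq2 in 8 libraries and 0.202 with the specimen block in 8. Among the other pathway genes, 0 to 1 were called (Me1, without TO 4) and 1 to 8 had an unadjusted p under 0.05 with a library left out, 6 when every gene was kept, 4 with DESeq2, 1 in 8 libraries, 1 in 7, 1 with DESeq2 in 8 and 4 with the specimen block in 7. Leaving out a library moved the log2 fold change of Srebf1 between -0.064 and 0.182, Srebf2 between -0.0157 and 0.118, Hmgcs1 between -0.206 and 0.18, Acly between -0.0057 and 0.148, and Scd2 between -0.167 and 0.227, each lowest without TO 2. Srebf2 was at -0.0249 in counts of the first strand, Hmgcs1 at -0.00731 with limma-voom, Scd2 at -0.0089 and Pcyt1a at -0.000699 in 8 libraries, and Scd2 at -0.0404 with the specimen block in 8.

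The correlation of deviations from the group means was low for lungs of the same replicate number, at 0.0576, 0.128, 0.162 and 0.073 for numbers 1 to 4. Control 2, 3 and 4 each correlated best with the TO lung of their number, and control 1 with TO 4 (0.0933), which shares its specimen number. Pairs that share a specimen number ran from 0.0277 to 0.162, and the other pairs from -0.172 to 0.014. With the replicate number as a block, edgeR called 219 genes in 6 libraries and 3 in 8, and 1 member (Scd1, log2 fold change 1.67) in 6. Among the 6 libraries control 1 and TO 3 have no partner of their number. Results of that block in 6 libraries thus rest on the pairs of number 2 and number 4 alone. Members at an unadjusted p under 0.05 numbered 5 in 6 libraries and 5 in 8, and the member median was 0.216 in 8. The other pathway genes at that p numbered 5 in 6 libraries and 4 in 8. For the replicate block the share of all genes at that p is not given here, so these counts are not set against it. In the replicate block of 8 libraries Fasn was at -0.000977, Scd2 at -0.0413 and Pcyt1a at -0.00712.

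Depth limits TO 1, where a gene at 1 CPM has less than 1 read pair.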

Other observations

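Low levels in control 3 and TO 3 together were also seen in cholesterol and fatty acid genes outside the 35, but not in most of the 8 fatty acid members. Of those 8, control 3 and TO 3 were the 2 lowest of 7 libraries for 1 (12.5%). Of 9 other genes of cholesterol synthesis and sterol sensing, control 3 and TO 3 were the 2 lowest of 7 libraries for 5 (55.6%). Of 14 other fatty acid genes they were for 7 (50%), beside 19.6% of all genes at 10 CPM or more and 14% of all genes. Some of these fatty acid genes lie below 10 CPM, down to a mean of 1.62 in the 6 libraries. Control 3 itself was the lowest for 44.4% of these cholesterol genes and 28.6% of these fatty acid genes, beside 26.7% of all genes at 10 CPM or more. Fads2, the delta-6 desaturase, was at 28.4 CPM in control 3 and 35.8 in TO 3, and at 51.4 to 79.8 CPM in the other 5 deep libraries. It did not belong to the genes chosen for naming and was picked after its values were seen.

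Lpl, the lipoprotein lipase that brings fatty acids in from the blood and a marker of lipofibroblasts, was at 68.3, 63.9 and 111 CPM in control 1, 2 and 4 and at 116, 174.5 and 160 CPM in TO 2, 3 and 4. DESeq2 called it in the 6 libraries (adjusted p = 0.045) and edgeR did not. Control 3, at 295 CPM, was the highest library of all. Of the 6 lipofibroblast markers, DESeq2 called 1, Lpl itself. The 8 cardiomyocyte markers summed to 773.6, 545 and 4154 CPM in control 1, 2 and 4. They summed to 2428, 3632 and 6004 CPM in TO 2, 3 and 4, and to 5360 in control 3. The part of heart or lipofibroblast RNA in the level of Lpl was not tested. Lpl too was named after its values were seen, and so was the cardiomyocyte list.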
